A study of Mus musculus with 16 samples.

Results

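The homeostatic microglia genes P2ry12, P2ry13, Tmem119, Cx3cr1, Csf1r, Sall1, Siglech, Gpr34 and Selplg were taken by gene symbol from a table of 47593 genes counted in cortex RNA of 5xFAD mice. All 9 genes were in the table, had between 122 and 3592 read pairs in each of the 16 libraries, and were among the 16553 genes that passed the filter on low counts. Every mouse was heterozygous for the 5xFAD transgenes, human genes with mutations of familial Alzheimer's disease, which the Thy1 promoter drives in neurons on a mixed C57BL/6 and SJL background. No mice without the transgenes were analysed here. The 4 groups, as labelled, held 4 libraries each. They were females on the control diet (FC) or the rapamycin diet (FR) and males on the control diet (MC) or the rapamycin diet (MR). The diets ran from 2 to 5 months of age, the control diet is called vehicle here, and rapamycin inhibits the kinase mTOR. By the labels, batch 1 held 11 libraries and batch 2 held the other 5, FC4, FR4, FR5, MC4 and MR4, and what a batch was is not said. The labels do not say that each library came from 1 mouse, so p values measure the spread between these libraries.

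Microglia are the resident macrophages of the brain. In the healthy brain they survey the tissue with moving processes and hold a set of surface receptors and a transcription programme that depend on signals from neurons and other glia, among them CSF1, IL-34, CX3CL1 and TGF-beta. Around amyloid plaques, microglia are known to lower this set of genes and to raise another, the plaque-associated genes.

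P2ry12 with P2ry13, and Tmem119 with Selplg, lie as neighbouring pairs in the genome. In GRCm38, the build of the count table, P2ry12 spans chr3:59216272-59262871 and P2ry13 spans chr3:59207892-59210882, both on the minus strand, 5389 bases apart and inside the span of Med12l on the other strand. P2ry12 shared 9 exon bases with Med12l and P2ry13 shared 0. Tmem119 (chr5:113793729-113800516) and Selplg (chr5:113818536-113832644) are both on the minus strand and lie 18019 bases apart. Cx3cr1 spans chr9:119901616-120068283 and Sall1 spans chr8:89027248-89044162, both on the minus strand, and Siglech spans chr7:55768178-55778925 on the plus strand. Gpr34 (chrX:13632089-13640858, plus strand) lies inside the span of Cask and shared 0 exon bases with it.

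The promoters of 5 of the 9 genes were held by the RefSeq table of GRCm38.p6 and are shown because these genes varied together across libraries, so that a reader can compare the sequence at their starts. Each runs from 250 bases before to 50 bases after the start of transcription in RefSeq, 5′ to 3′. For P2ry12 that start lies 114 bases before the gene's start in the count table, so the window lies outside the span given above. The 2 starts differ by 13 bases for Cx3cr1, by 6 for Siglech and by 0 for P2ry13 and Sall1. Capitals mark a PU.1 core (GAGGAAG) in P2ry13 and, in Cx3cr1, a match to a loose MEF2 pattern, CTA and TAG with 4 bases of any kind between them. PU.1 and MEF2 are transcription factors known to act in microglia. The match in Cx3cr1 holds a G among its middle bases, where the usual MEF2 consensus has only A or T, so it matches the loose pattern and not that consensus. The windows are chr3:59210833-59211132 (minus strand) for P2ry13, chr3:59262936-59263235 (minus) for P2ry12, chr9:120068247-120068546 (minus) for Cx3cr1, chr7:55767934-55768233 (plus) for Siglech and, for the outermost of 3 listed starts, chr8:89044113-89044412 (minus) for Sall1.
P2ry13: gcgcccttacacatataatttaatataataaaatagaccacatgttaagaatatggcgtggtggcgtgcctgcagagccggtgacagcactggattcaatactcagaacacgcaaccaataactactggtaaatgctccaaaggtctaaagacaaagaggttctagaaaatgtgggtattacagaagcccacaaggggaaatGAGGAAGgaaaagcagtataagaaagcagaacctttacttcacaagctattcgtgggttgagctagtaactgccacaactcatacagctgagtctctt
P2ry12: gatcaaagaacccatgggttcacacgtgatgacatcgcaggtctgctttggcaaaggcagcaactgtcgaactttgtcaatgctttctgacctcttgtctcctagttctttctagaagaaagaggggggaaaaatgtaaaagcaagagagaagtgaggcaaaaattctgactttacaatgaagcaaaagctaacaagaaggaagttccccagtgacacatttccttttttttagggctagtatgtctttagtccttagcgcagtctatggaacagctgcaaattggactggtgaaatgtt
Cx3cr1: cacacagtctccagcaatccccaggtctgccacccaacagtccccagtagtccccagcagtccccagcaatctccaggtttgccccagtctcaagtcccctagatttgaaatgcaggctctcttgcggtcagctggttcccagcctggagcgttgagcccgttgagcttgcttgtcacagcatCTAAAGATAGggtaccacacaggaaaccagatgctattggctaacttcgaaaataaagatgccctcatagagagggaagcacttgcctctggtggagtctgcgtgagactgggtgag
Siglech: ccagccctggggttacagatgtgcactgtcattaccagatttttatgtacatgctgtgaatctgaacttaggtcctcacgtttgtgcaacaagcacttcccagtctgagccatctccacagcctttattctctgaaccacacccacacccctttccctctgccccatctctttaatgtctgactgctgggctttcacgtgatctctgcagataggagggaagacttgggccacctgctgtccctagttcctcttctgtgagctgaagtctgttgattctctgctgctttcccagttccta
Sall1: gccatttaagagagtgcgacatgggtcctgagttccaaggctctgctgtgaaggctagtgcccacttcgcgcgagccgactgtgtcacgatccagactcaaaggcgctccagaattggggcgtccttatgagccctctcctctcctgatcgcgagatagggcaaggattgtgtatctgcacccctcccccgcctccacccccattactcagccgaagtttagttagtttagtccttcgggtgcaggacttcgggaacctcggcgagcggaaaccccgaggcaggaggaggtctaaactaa

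The PU.1 core of P2ry13 began 48 bases before the start, and the loose MEF2 match of Cx3cr1 began 67 bases before it. Of the 32851 promoters in the table, 13.6% held the PU.1 core on either strand and 3.69% held a match to the loose MEF2 pattern. The AP-1 motif TGANTCA, held by 7.81% of all promoters, and the longer PU.1-IRF composite motif, held by 0.731%, had no match in the 5 windows. The neighbours P2ry12 and P2ry13 had the same GC content, 42.3%, below the median of 52.7% over all promoters, and Sall1 had 57.3%. Tmem119, Csf1r, Gpr34 and Selplg had no entry in the table.

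Libraries held between 16393501 and 20593089 counted read pairs, and values are given as CPM, the count scaled to library size with edgeR's TMM factors. MR4, labelled male, held 9935 read pairs on Xist (512 CPM) and none on the Y-linked genes examined. The FC and FR libraries held 491 to 1302 CPM on Xist. The MC libraries and the other MR libraries held 1915 to 2231 read pairs on the Y-linked genes. The sex-linked reads of MR4 were thus those of a female and went against its label. It was kept in MR as labelled, and values of MR and of males include it unless said otherwise. It is called here the library labelled MR4 wherever it decides a direction. FR1, FR2 and MR2 stood apart in their mitochondrial share of read pairs (6.88%, 6.98% and 6.99%, against 2.64% to 5.47% in the others). The same 3 libraries had the lowest slopes of expression on log2 exon length (-0.121, -0.127 and -0.122, against -0.033 to 0.1004). Genes of blood monocytes, neutrophils and lymphocytes summed to between 1.17 and 4.32 CPM over 12 genes, and to 12.7 CPM in MR2. In whole tissue, fewer microglia and less RNA of a gene per microglial cell cannot be told apart.

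Csf1r, the receptor of CSF1 and IL-34 on which microglia depend for survival, had the highest level per exon length, 29.9 ± 6.01 CPM per kb (SD over 16 libraries). Cx3cr1, the receptor of the neuronal chemokine CX3CL1, followed with 20.2 ± 4.76 CPM per kb, and both orders held in 16 of 16 libraries. P2ry12, an ADP receptor that guides microglial processes, had 13.6 ± 3.17 CPM per kb. Tmem119, a microglial membrane protein, had 12.6 ± 1.81 CPM per kb and was below P2ry12 in only 9 of 16 libraries, so this order did not exceed the spread. Selplg, which encodes the P-selectin ligand PSGL-1, had 11.2 ± 2.28 CPM per kb and Gpr34, a receptor of lysophosphatidylserine, 8.64 ± 3.11 CPM per kb. Siglech, a member of a family of lectins that bind sialic acid, had 5.96 ± 1.49 CPM per kb. P2ry13, a second ADP receptor, had 5.76 ± 1.76 CPM per kb, and Sall1, a transcription factor of microglial identity, 5.30 ± 1.08. These last levels did not differ beyond their spread, since Siglech was above P2ry13 in 10 of 16 libraries and P2ry13 above Sall1 in 10 of 16. Gpr34 varied most between libraries relative to its mean, with a coefficient of variation of 36.1%, and Tmem119 least, with 14.4%. Csf1r spans chr18:61105572-61132149 on the plus strand. The unstranded counting could not assign read pairs in the 871 exon bases (17.8%) that Csf1r shares with Hmgxb3 on the other strand, so its level per length may be understated.

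**Figure D1:**
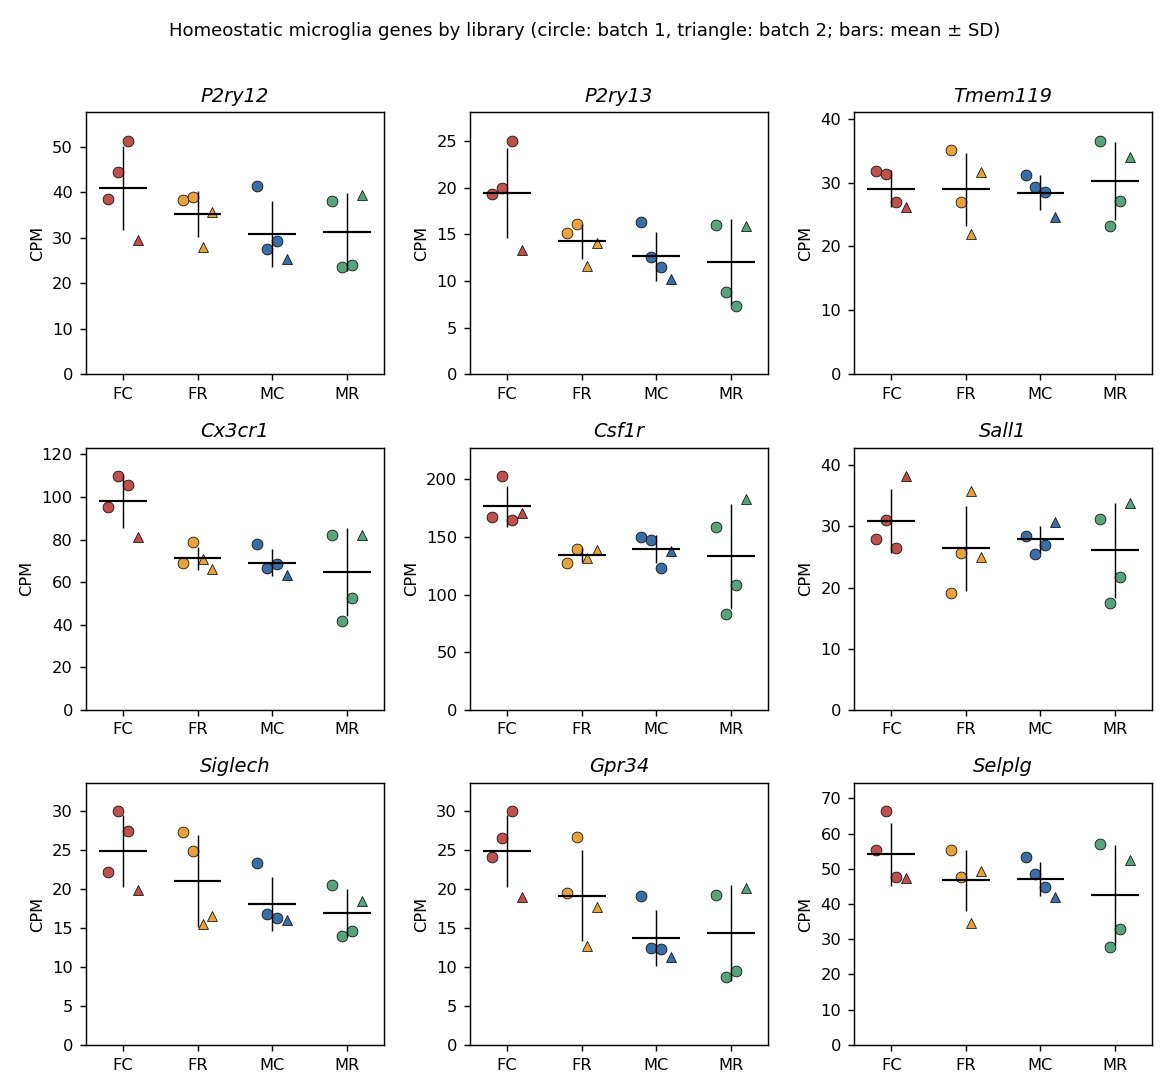
CPM of each gene (y axis, from 0) in the FC, FR, MC and MR libraries (x axis), with circles for batch 1, triangles for batch 2, and lines for the group mean and SD. In Cx3cr1 and Csf1r the 4 FC libraries lie above the 4 FR and the 4 MC libraries, while in the other genes these groups overlap, and the MR libraries spread most in Csf1r (133 ± 45.8 CPM).

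The first question was whether rapamycin changed these genes with both sexes in the fit. None of the 9 genes was called at an adjusted p under 0.05 by edgeR's quasi-likelihood test, while 13.3% of all genes tested were. At an unadjusted p under 0.05 the count was 0 of 9, against 30.4% of all genes. DESeq2 called 0 of the 9 and 18.6% of all genes, and had 2 of the 9 at an unadjusted p under 0.05, against 31.3% of all genes. In edgeR fits that left out MC4, MR1 or the library labelled MR4, 3 of the 9 had an unadjusted p under 0.05 and 0 were called. In these fits 27.7%, 31.5% and 28.8% of all genes had such a p, so the counts do not set the 9 apart. The edgeR count over all genes ranged from 719 without FR1 to 3352 without FR4. In 8 of the 9 genes the fitted value was lower with rapamycin, against 47.7% of all genes, and their median log2 fold change was -0.16 against 0.02 for all genes. Relative to core myeloid RNA, the summed counts of 12 genes that macrophages share, 6 of the 9 were lower and the median was -0.02. In no gene did the 8 rapamycin libraries lie apart from the 8 vehicle libraries, which they did in 0.489% of all genes. The largest fitted fold change was in Cx3cr1, 83.6 ± 18.1 CPM with vehicle and 67.9 ± 14.5 CPM under rapamycin (SD over 8 libraries each), and the fitted log2 fold change was -0.27 with a 95% interval of -0.55 to 0.0048 (adjusted p = 0.172). Csf1r fitted at -0.26 (-0.52 to 0.014, adjusted p = 0.187) and Sall1 at -0.22 (-0.46 to 0.020, adjusted p = 0.204). P2ry12 fitted at -0.06 (-0.36 to 0.24) and Tmem119 at 0.06 (-0.17 to 0.28). Without FR1, FR2 and MR2, an alternative chosen after seeing the data, 7 of the 9 genes were lower and the median was -0.09.

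In females, Cx3cr1 and Csf1r had the largest differences between rapamycin and vehicle. Cx3cr1 had 95.3, 110.0, 106 and 81.4 CPM in FC1 to FC4 and 69.0, 78.9, 70.7 and 65.9 CPM in FR1, FR2, FR4 and FR5. All FC libraries were above all FR libraries, with the batch 2 library FC4 closest to them. The log2 fold change was -0.46 (SE 0.18, 95% interval -0.84 to -0.076), a ratio of 0.728, and it did not pass at an adjusted p of 0.142. Csf1r had 167, 203, 165 and 171 CPM in FC1 to FC4, and 127, 139, 132 and 139 CPM in FR1, FR2, FR4 and FR5. These groups did not overlap either, and the log2 fold change was -0.43 (SE 0.18, interval -0.81 to -0.064), a ratio of 0.740 at an adjusted p of 0.150. Such a fall of a whole group below the other was seen in 2 of the 9 genes and in 3.65% of all genes. Both genes also had an unadjusted p under 0.05, as did 11.7% of all genes in the downward direction. With 1 library left out, the count of the 9 with such a p ran from 0 to 3. It was 0 without FC2 (22.6% of all genes), and 3 without FC4, FR2, MR1 or MR2 (15.4% to 23.8%). The slope on exon length or the mitochondrial share as a covariate gave 0 (3.79% and 7.73%), as did values relative to core myeloid RNA (10.2%). Without FR1, FR2 and MR2 it was 3 (4.49%), and without the low-count filter 5 (15.2%). Relative to core myeloid RNA the values were -0.25 for Cx3cr1 and -0.23 for Csf1r.

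No member passed in females by edgeR or by DESeq2, where edgeR called 2 genes of all, 0.0121%, and DESeq2 called 1487, 8.98%. With 1 library left out, the edgeR count over all genes was 1 or 2 in most fits, but 183 without MR3, 233 without FC4, 349 without the library labelled MR4, 462 without MR2 and 2104 without FR4, with 0 members called in each. P2ry13 had 19.3, 19.9, 25.0 and 13.3 CPM in FC1 to FC4 and 15.2, 16.04, 11.6 and 14.1 CPM in FR1, FR2, FR4 and FR5. FC4 lay among the FR libraries and the other FC libraries above them, and P2ry13 fitted at -0.40 (adjusted p = 0.330). Gpr34 and Sall1 fitted at -0.33 each, and Selplg, Siglech and P2ry12 between -0.19 and -0.17. P2ry12 had 38.5, 44.5, 51.4 and 29.5 CPM in FC1 to FC4 and 38.3, 39.1, 28.0 and 35.6 CPM in FR1, FR2, FR4 and FR5. FC2 and FC3 were above every FR library, FC1 lay between FR1 and FR2, and FC4 lay just above FR4, the lowest of the 8. Tmem119 had 31.8, 31.3, 26.9 and 26.2 CPM in FC1 to FC4 and 35.0, 27.03, 22.01 and 31.7 CPM in FR1, FR2, FR4 and FR5. Its lowest and its highest value were both in FR libraries, and the fitted difference was 0.02. With rapamycin 8 of the 9 genes were lower in females, against 47.9% of all genes, and relative to core myeloid RNA 6 of 9 were. The median of the 9 was -0.33, beside 0.02 for all genes and -0.17 for the 12 core myeloid genes. Markers of other cells differed between FC and FR as well, although none was called. All 7 oligodendrocyte genes were higher in FR (median 0.46, summed CPM 3799 to 6146 in FC and 4361 to 9811 in FR), and all 7 choroid plexus genes were lower (median -1.43, 14.4 to 329.6 CPM in FC and 30.7 to 106.6 CPM in FR). Their part in the differences of the 9 genes was not tested. Without FR1, FR2 and MR2 all 9 were lower in females and the median was -0.43. With the slope on exon length as a covariate Cx3cr1 fitted at -0.36 in females, and with the mitochondrial share at -0.45.

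In males the MR libraries spanned a wide range and no gene was called, among the members or among all genes (0%). Cx3cr1 had 77.9, 66.7, 68.4 and 63.4 CPM in MC1 to MC4 and 82.3, 41.5, 52.6 and 82.3 CPM in MR1 to MR4. The MR libraries fell on both sides of the MC libraries, with MR1 and MR4 above and MR2 and MR3 below, and in no gene did MR and MC lie apart, which they did in 6.13% of all genes. Csf1r showed the same arrangement, with 150.0, 147, 123 and 138 CPM in MC1 to MC4 and 159, 83.1, 108 and 183 CPM in MR1 to MR4. None of the 9 genes had an unadjusted p under 0.05, against 12% of all genes, and DESeq2 called 0 of them and 18 of all genes. The fitted log2 fold changes ran from -0.14 in Selplg to 0.10 in Gpr34, with -0.09 in Cx3cr1 (interval -0.47 to 0.28) and a median of -0.08. Single libraries set this sign. Without the library labelled MR4 all 9 genes were lower with rapamycin and the median was -0.26, and without MR2 all 9 were higher and the median was 0.090. Without MR3 the median was 0.0096 and without MC1 it was 0.030. MR2 was the lowest of the 16 libraries in 7 genes and among the 2 lowest in all 9.

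The difference between the sexes in the response was tested as an interaction. No member was called and no gene of all was called (0%) by edgeR, none of the 9 had an unadjusted p under 0.05 against 2.17% of all genes, and DESeq2 called 0 of the 9. All 9 interaction values were below 0, where 50.7% of all genes were, with a median of -0.22, and relative to core myeloid RNA 7 of 9 were. Cx3cr1 gave -0.37 (interval -0.90 to 0.17) and Csf1r gave -0.35, both at an adjusted p of 0.999. Without the library labelled MR4 the sign did not hold, with 3 of the 9 below 0 and a median of 0.014. Without MR2 all 9 were below 0 with a median of -0.34, and 2 had an unadjusted p under 0.05, against 5.76% of all genes. Without FR1, FR2 and MR2 the median was -0.48 and 3 had such a p, against 2.13% of all genes. In batch 1 alone 5 of the 9 were below 0 with a median of -0.018, and 0 had such a p, against 6.14% of all genes.

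Among vehicle mice, the 9 genes had higher fitted values in females than in males. Gpr34 had 24.04, 26.5, 30.0 and 18.9 CPM in FC1 to FC4 and 19.1, 12.4, 12.3 and 11.2 CPM in MC1 to MC4. MC1 overlapped the FC range by its edge and the other MC libraries lay well below it, and the ratio was 1.80, a log2 fold change of 0.85 (interval 0.28 to 1.43). P2ry13 had 16.3, 12.5, 11.5 and 10.2 CPM in MC1 to MC4 and fitted at 0.62 (0.118 to 1.118). Cx3cr1 fitted at 0.51 (0.13 to 0.88), a ratio of 1.42, and Siglech at 0.45 (0.079 to 0.82). Siglech had 22.1, 29.9, 27.4 and 19.8 CPM in FC1 to FC4 and 23.2, 16.8, 16.3 and 15.99 CPM in MC1 to MC4. MC1 lay within the FC range and the other MC libraries below it. These 4 genes had an unadjusted p under 0.05, against 2.01% of all genes in the upward direction. None of the 9 passed adjustment (adjusted p = 0.999 for each by edgeR, and 0 called by DESeq2). Of all genes 0.0121% did, the Y-linked Ddx3y and Eif2s3y, while Xist, at a log2 fold change of 10.83, was not called. The library labelled MR4 entered this fit's estimate of the spread. Without that library 6 of the 9 had an unadjusted p under 0.05, against 3.78% of all genes in either direction. There 0 of the 9 and 0.0356% of all genes were called. Relative to core myeloid RNA Gpr34 fitted at 0.56, Cx3cr1 at 0.19 and Csf1r at 0.017. Selplg had 55.3, 66.3, 47.7 and 47.2 CPM in FC1 to FC4 and 53.2, 48.6, 44.8 and 41.9 CPM in MC1 to MC4. FC1 and FC2 were above every MC library and FC3 and FC4 lay within the MC range, and Selplg fitted at 0.20.

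In Cx3cr1 and Csf1r all FC libraries were above all MC libraries, a pattern seen upward in 1.03% of all genes. The same FC libraries entered this comparison and that with FR, so the values are given side by side. Group means of Cx3cr1 were 98.1 ± 12.7 CPM in FC, 71.1 ± 5.53 in FR, 69.1 ± 6.23 in MC and 64.7 ± 20.9 in MR (SD, n = 4 each). Those of Csf1r were 177 ± 17.8, 134 ± 5.75, 140 ± 12.1 and 133 ± 45.8 CPM in the same order. FC had the highest mean in 8 of the 9 genes, and in Tmem119 the 4 means lay between 28.4 and 30.2 CPM. All 9 genes were above 0 in FC against MC, where 49.6% of all genes were, and the median was 0.40, but relative to core myeloid RNA 6 of 9 were above 0 and Tmem119, Sall1 and Selplg were below. In that comparison the 12 core myeloid genes themselves were all above 0 with a median of 0.41 and none called, and the 24 plaque-associated genes had a median of 0.26 with 20 above 0 and none called. The 10 genes tested of border macrophages, which line the vessels and meninges, had a median of 0.03.

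**Figure D2:**
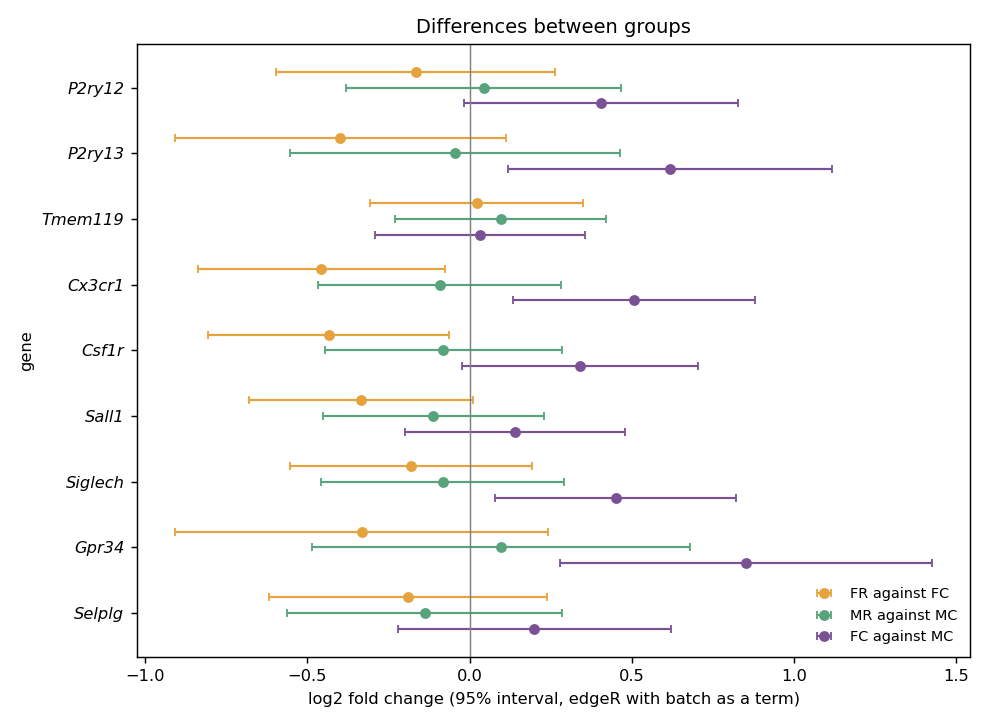
Log2 fold change (x axis) of each gene (y axis) for FR against FC, MR against MC and FC against MC, with points for the edgeR estimate and bars for the 95% interval, batch being a term of the fit. The Cx3cr1 and Csf1r intervals of FR against FC lie below 0 before adjustment for multiple tests, the MR against MC intervals all include 0, and Gpr34 has the largest estimate of FC against MC at 0.85.

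The members' counts can be read beside the other genes of the microglial programme and its signals. Of 24 other homeostatic genes, 1 rose and 1 fell with rapamycin over both sexes, where 6.46% of all genes tested rose and 6.86% fell, so these counts do not set the list apart. Their median was -0.16, close to that of the members. Fcrls, an Fc receptor-like gene known from microglia, fell with rapamycin, from a mean of 51.3 to 30.9 CPM (log2 fold change -0.64, SE 0.17, adjusted p = 0.0250). It had 60.0, 82.2, 64.4 and 51.2 CPM in FC1 to FC4 and 35.4, 35.1, 24.7 and 32.5 CPM in FR1, FR2, FR4 and FR5. In males it had 33.4, 52.5, 40.6 and 25.9 CPM in MC1 to MC4 and 32.1, 25.6, 20.9 and 41.0 CPM in MR1 to MR4. The female groups lay apart and the male groups overlapped, and the female value of -0.97 had an adjusted p of 0.0645. Crybb1, a crystallin gene also known from microglia, rose from 3.99 to 6.37 CPM (log2 fold change 0.70, adjusted p = 0.0196).

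Of 15 tested genes for ligands and signalling partners of these receptors, 2 fell and 0 rose, with a median of -0.14, beside the 6.86% of all genes that fell. Tgfbr2 is a subunit of the TGF-beta receptor, and Itgb8 an integrin subunit that helps to activate TGF-beta. Tgfbr2 fell from 42.5 to 31.5 CPM (log2 fold change -0.46, SE 0.13, adjusted p = 0.0328) and Itgb8 from 63.8 to 51.6 CPM (-0.37, SE 0.12, adjusted p = 0.0462). With the replicate number as a block neither passed, Tgfbr2 at -0.43 (adjusted p = 0.0628) and Itgb8 at -0.33 (adjusted p = 0.0787). Tgfbr2 had 41.5, 51.7, 45.8 and 42.5 CPM in FC1 to FC4, 26.4, 34.8, 40.9 and 26.8 CPM in FR1, FR2, FR4 and FR5, and in males 36.5 to 43.6 CPM in MC and 21.2 to 43.9 CPM in MR. Its female groups lay apart and MR4 exceeded every MC library. Leaving out single libraries ended the call of Itgb8 in 12 of 16 fits, of Tgfbr2 in 8, of Fcrls in 3 (FR1, FR2 or MR2) and of Crybb1 in 1 (FR1). In batch 1 alone Fcrls and Tgfbr2 passed, and Crybb1 and Itgb8 did not. Without a batch term, where 0.858% of all genes were called, none of the 4 passed. Relative to core myeloid RNA, where 0.0665% of all genes were called, none passed either. There Fcrls was -0.51, Crybb1 0.88, Tgfbr2 -0.30 and Itgb8 -0.16. With the slope on exon length as a covariate, where 0 genes of all were called, Fcrls was -0.82, Crybb1 0.59, Tgfbr2 -0.33 and Itgb8 0.08. Without FR1, FR2 and MR2, where 1 gene of all was called, none of the 4 passed, and Fcrls was -0.52, Crybb1 0.77, Tgfbr2 -0.33 and Itgb8 -0.18. The ligands of the receptors themselves were not called. Cx3cl1, the ligand of Cx3cr1, had 208.9 CPM per kb and fitted at -0.10, Il34 had 28.6 CPM per kb and fitted at 0.13, and Csf1 had 5.43 CPM per kb and fitted at -0.20.

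The plaque-associated list of 24 genes had 1 called higher and 1 lower with rapamycin, again no more than the shares of all genes called, and a median of -0.24. These were Fabp5, a fatty acid binding protein (65.0 to 84.4 CPM, log2 fold change 0.43, adjusted p = 0.0169), and Cybb, a subunit of the phagocyte oxidase (2.69 to 1.51 CPM, -0.83, adjusted p = 0.0328). With the slope and with the mitochondrial share as a covariate, where 0 genes of all were called, Fabp5 was 0.15 and 0.23 and Cybb -0.49 and -0.83. Without FR1, FR2 and MR2, where 1 gene of all was called, Fabp5 was 0.33 and Cybb -0.60, and neither passed. Neither passed without a batch term or relative to core myeloid RNA, where 0.858% and 0.0665% of all genes were called. Fabp5 lost its call in 0 of the 16 fits that left out 1 library, and Cybb in 9. Cybb also lost it with the replicate block (-0.82, adjusted p = 0.0623). The 12 core myeloid genes had none called and a median of -0.13, with C1qa, a complement subunit, at -0.12. In females none of the genes in these lists was called by edgeR. At an unadjusted p under 0.05, 7 of the 24 other homeostatic, 2 of the 12 core myeloid and 1 of the 24 plaque-associated genes were lower. Of all genes 11.7% were lower by the same rule. The medians in females were -0.32 for the other homeostatic, -0.17 for the core myeloid and -0.22 for the plaque-associated genes.

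The summed CPM of the 9 genes was 499 ± 49.1 in FC, 397 ± 26.1 in FR, 387 ± 37.4 in MC and 371 ± 116 in MR (SD, n = 4 each). Divided by the summed CPM of the core myeloid genes, it gave 0.634 ± 0.103 in FC, 0.619 ± 0.160 in FR, 0.614 ± 0.0550 in MC and 0.624 ± 0.121 in MR. The lowest ratio was 0.449 in MR2 and the highest 0.807 in FR4, so libraries of 1 group differed by more than the group means did. Against the plaque-associated genes the ratio was 0.218 ± 0.0315 in FC, 0.208 ± 0.0449 in FR, 0.184 ± 0.0182 in MC and 0.194 ± 0.0285 in MR. Over both sexes the ratio to core myeloid genes was 0.624 ± 0.077 with vehicle and 0.621 ± 0.131 with rapamycin (SD, n = 8 each). The batches differed more, with 0.586 ± 0.0993 in batch 1 and 0.704 ± 0.0628 in batch 2. FR1, FR2 and MR2, all of batch 1, had ratios of 0.499, 0.474 and 0.449, below every vehicle library (0.522 to 0.748). The other rapamycin libraries ran from 0.635 in MR4 to 0.807 in FR4, so the near-equal means of the diets include these low libraries. Their part in either comparison was not tested.

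**Figure D3:**
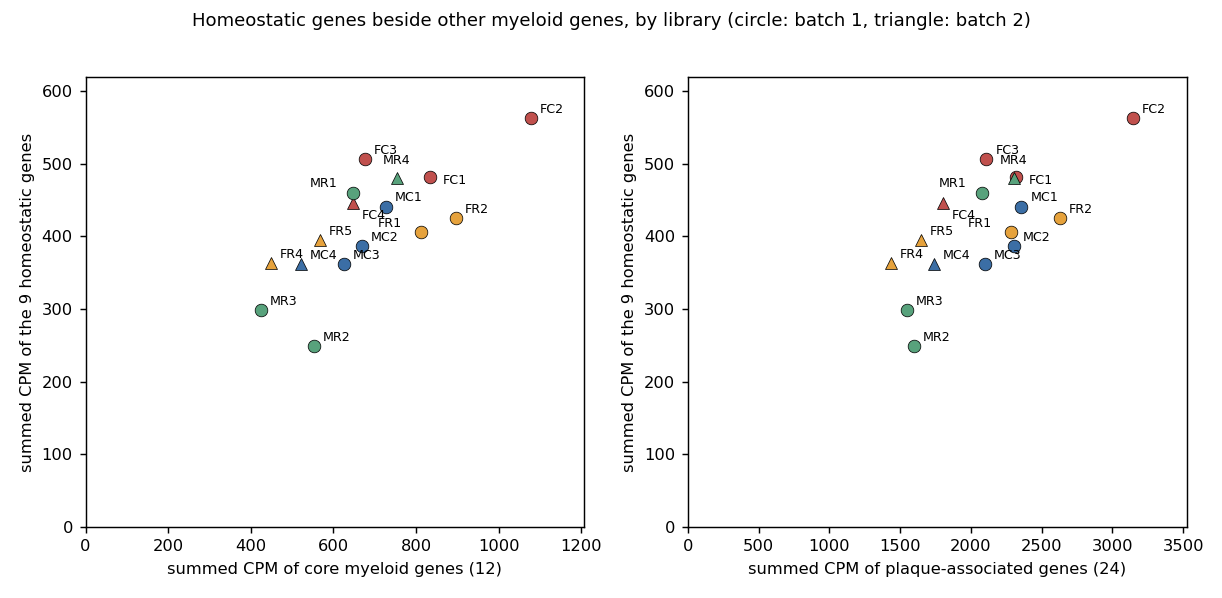
Summed CPM of the 9 homeostatic genes (y axis) against that of 12 core myeloid genes (left) and of 24 plaque-associated genes (right), 1 point a library, colours for FC, FR, MC and MR, circles for batch 1 and triangles for batch 2. FC2 is highest on all 3 sums, MR2 has the lowest sum of homeostatic genes, and the ratio to core myeloid genes is 0.704 ± 0.0628 in batch 2 against 0.586 ± 0.0993 in batch 1.

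Between batches, Sall1 was the only member called. It had 38.3, 35.8, 25.0, 30.7 and 33.8 CPM in the batch 2 libraries FC4, FR4, FR5, MC4 and MR4, and ranged from 17.5 to 31.3 CPM over the 11 libraries of batch 1. FR5 and MC4 lay within the batch 1 range and the other 3 above it, and the means were 32.7 ± 5.12 CPM in batch 2 and 25.6 ± 4.49 CPM in batch 1. The log2 fold change was 0.39 (SE 0.123, interval 0.13 to 0.65, adjusted p = 0.0210), in a comparison where 35.5% of all genes were called. The call was lost without FC4 (adjusted p = 0.0640), FR4 (0.0602) or MR4 (0.0624), and without FR1, FR2 and MR2 (0.26, adjusted p = 0.118). Siglech went the other way, from 21.5 ± 5.54 CPM in batch 1 to 17.2 ± 1.84 CPM in batch 2, a log2 fold change of -0.32 that did not pass (adjusted p = 0.0682). The other 7 genes lay between -0.21 and 0.13.

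Genes of border macrophages moved with the batch. Of the 12, 10 were tested and 5 were higher in batch 2, where 19.1% of all genes were called higher, among them Cd209f, Mrc1 and Stab1, which are receptors, and F13a1, a coagulation factor subunit (log2 fold changes 1.29, 1.24, 1.14 and 1.23). With the slope on exon length as a covariate Mrc1 was 0.63 (adjusted p = 0.215), Cd209f 1.00 (0.204) and F13a1 1.13 (0.0612), while Stab1 passed at 0.90. The 12 genes summed to between 17.4 and 36.9 CPM in batch 1 and to between 34.2 and 61.3 CPM in batch 2, and none was at 0 over all libraries. Genes of other cells moved with the batch too. Of 7 choroid plexus genes 4 were called higher (median 1.52), but the libraries of batch 2 differed widely. Their choroid plexus sums were 14.4, 30.7, 106.6, 1955 and 190.9 CPM in FC4, FR4, FR5, MC4 and MR4, against 23.4 to 329.6 CPM in batch 1. Of 9 genes of endothelium and pericytes 4 were called higher, and of 8 neuronal genes 3 were called lower and 1 higher. Core myeloid genes had 2 lower calls of 12 and plaque-associated genes 5 of 24, close to the 16.5% of all genes called lower. The part of these genes in the batch difference of Sall1 was not tested.

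**Figure D4:**
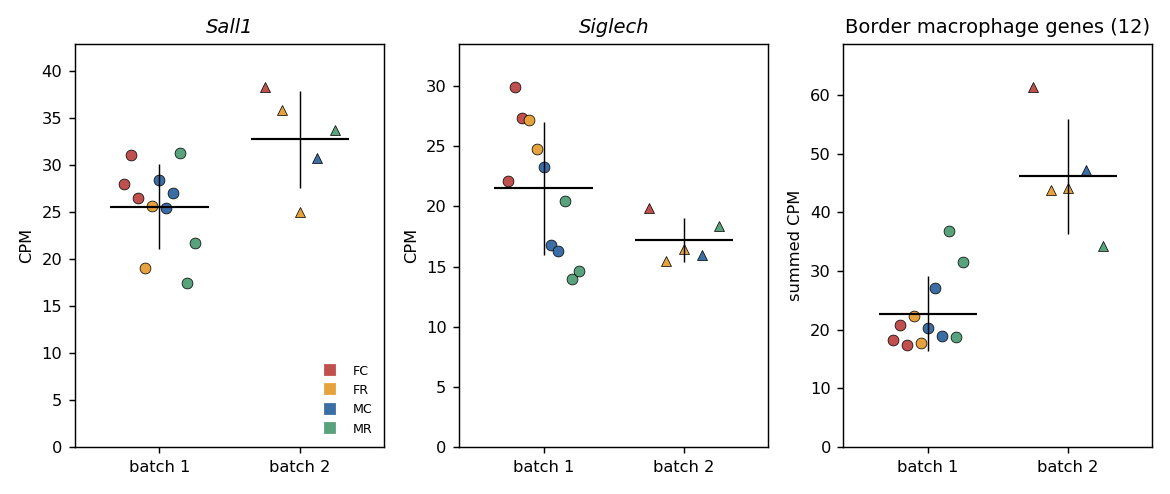
CPM of Sall1 and Siglech and summed CPM of 12 border macrophage genes (y axes, from 0) in the 11 libraries of batch 1 and the 5 of batch 2 (x axis), coloured by group, with lines for the mean and SD. Sall1 is 25.6 ± 4.49 CPM in batch 1 and 32.7 ± 5.12 CPM in batch 2, Siglech has the lower mean in batch 2, and the border macrophage sums of the batches meet only at 34.2 to 36.9 CPM.

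The 9 genes varied together across libraries. After each batch's mean log2 CPM was subtracted, Pearson's r over the 16 libraries was above 0 in all 36 pairs, with a median of 0.780 and 27 pairs above 0.5. Over all pairs of the 14690 tested genes of at least 1 CPM the median was -0.00029. The points share libraries and their depth and composition, so these values are a description. The closest pair was P2ry12 and P2ry13, the chromosome 3 neighbours, at 0.948. Gpr34, on another chromosome, was nearly as close to P2ry13 (0.945) and P2ry12 (0.941), and Cx3cr1 and Csf1r were at 0.944. Over the 16 libraries Tmem119 and Sall1 stood apart from the rest, with medians over their pairs of 0.476 and 0.489 and the lowest pair between them, 0.173. Tmem119 was closest among the members to its neighbour Selplg (0.794), and Sall1 to Csf1r (0.765). Within batch 1 alone the median of the 36 pairs was 0.798 (range 0.418 to 0.961), and without the library labelled MR4 over both batches it was 0.775. In batch 1 the medians over their pairs were 0.479 for Tmem119 and 0.591 for Sall1. There Tmem119 with Sall1 was at 0.475, and the lowest pair was Sall1 with Siglech. Without subtracting batch means 35 of 36 pairs were above 0.

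**Figure D5:**
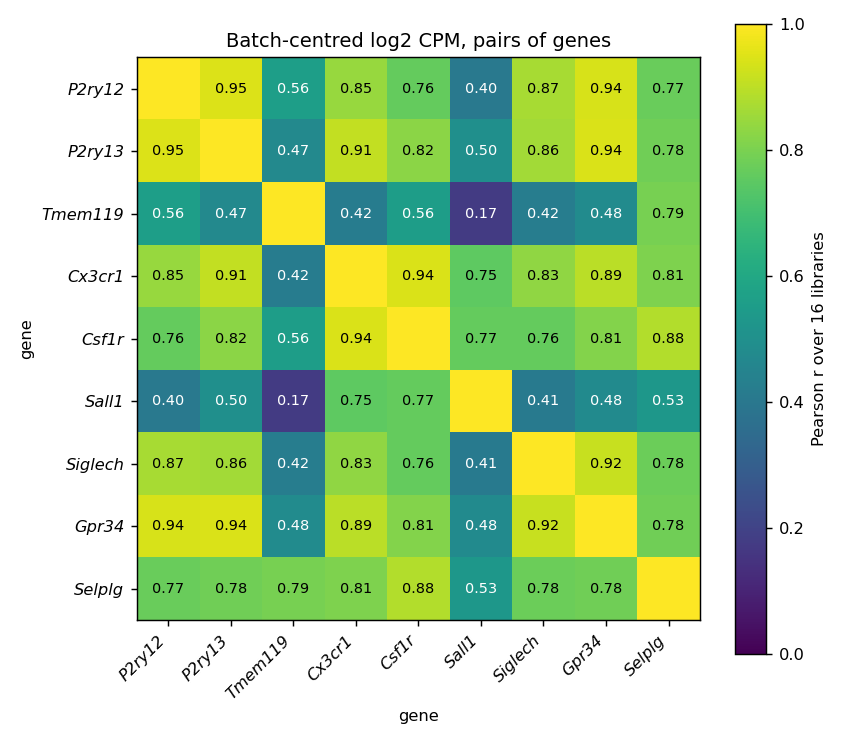
Pearson r between the 9 genes (both axes) over 16 libraries, from log2 CPM with batch means subtracted, on a colour scale from 0 to 1. P2ry12, P2ry13, Gpr34, Siglech and Cx3cr1 form a block of high values, up to 0.948, while the rows of Tmem119 and Sall1 are lower, down to 0.173.

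Outside the 9 genes, the 10 with the highest mean r to them included Lyn (0.825), Cd84 (0.813), Laptm5 (0.807), Olfml3 (0.807), Vav1 (0.7998), Dock2 (0.786), Mpeg1 (0.782) and Slc15a3 (0.777). Of these 10, 6 were also among the 10 nearest within batch 1. The single nearest gene was Lcp1 for Cx3cr1 (0.956), Fyb for Sall1 (0.940), Gpr183 for Selplg (0.916) and Rhof for Tmem119 (0.899). For P2ry12, P2ry13, Siglech and Gpr34 it was another of the 9 genes. In batch 1 the nearest gene of Tmem119 was Sox12 and that of Sall1 was Abca1, so single nearest genes depended on the libraries used.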

How the data were processed

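Cortical poly(A) RNA was sequenced in 16 libraries. The deposited values are the authors' counts of read pairs per gene, without normalization. Per the submitters' processing notes and the study's methods, the authors used FastQC 0.11.9, Trim Galore, Trimmomatic 0.39, HISAT2 2.2.1 against GRCm38 (mm10) and featureCounts 2.0.3 in paired, unstranded mode, so read pairs in exons of overlapping genes could not be assigned by strand. Copies of the counts by group had 0 differing cells, and 17345 of 47593 genes had no count. Reads were not used here.

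Counts were analysed in R 4.3.3 with edgeR 4.0.16 (limma 3.58.1): filterByExpr with a minimum count of 10, TMM factors, and quasi-likelihood tests with sex, batch and treatment as terms for both sexes and the batch comparison, or the 4 groups and batch for the other comparisons. Benjamini-Hochberg adjustment ran over the 16553 genes tested, and a call is an adjusted p under 0.05. Intervals are 95% and unadjusted. CPM values use TMM factors, log2 CPM a prior count of 2. Correlations and sums got no test. Depth ranged from 16393501 to 20593089 read pairs. Only the edgeR test of rapamycin against vehicle, with both sexes and in females, was run on simulated counts, which held no sex or batch effect.

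The members, the 15 gene lists and the tests were chosen with earlier results of these data known. Named genes are the members, the list genes called in a comparison (at most 4 by size of change, otherwise those of highest level, of which some are given), the 10 genes of most alike pattern and each member's nearest gene, and sex-linked genes. Some genes that this rule names are not reported here. Sox12, Abca1, Il34, Csf1 and Cx3cl1 were named after their values were seen. Alternatives were DESeq2 1.42.0, other size factors, no low-count filter, no batch term, batch 1 alone, a replicate block, each library left out, covariates, counts relative to core myeloid RNA and a fold threshold of 1.5. Promoters are those of RefSeq, matched by symbol for 5 of 9 genes. Python 3.11.15, NumPy 2.4.6, pandas 2.3.3 and matplotlib 3.10.9 were used for tables and figures. Libraries of the 2 diets share replicate numbers in 7 pairs. Their deviations from the group means correlated at 0.435, 0.447 and 0.675 in the 3 female pairs, and at -0.157, 0.113, 0.143 and 0.351 in the 4 male pairs, and pairs also share a batch. The labels do not say what a number stands for.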

Additional observations from a re-analysis of the deposited data

Results flagged for a closer look

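In 3 of 36 combinations of a gene and a group of 4, the highest library stood far from the other 3 relative to the range of the group, which chance gives in about 1 of 20 groups. Csf1r was 203 CPM in FC2, above 165 to 171 CPM in the other FC libraries. Siglech was 23.2 CPM in MC1, above 15.99 to 16.8 CPM in the other MC libraries. Gpr34 was 19.1 CPM in MC1, above 11.2 to 12.4 CPM in the other MC libraries. FC2 also had the highest sums of the core myeloid and of the plaque-associated genes. Without MC1 the log2 fold change of FC against MC was 0.57 for Siglech and 1.04 for Gpr34, and neither was called.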

How the results depend on the processing

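No gene of the 9 was called in males, in the interaction or with both sexes under any alternative run. Without the low-count filter 2 genes were called in females (Cx3cr1, adjusted p = 0.0186, and Csf1r, adjusted p = 0.0261) and 2 in FC against MC (Gpr34, adjusted p = 0.000138, and Cx3cr1, adjusted p = 0.0336). Of the 30248 genes tested in these fits, 1678 (5.55%) and 144 (0.476%) were called. The log2 fold changes stayed close to those with the filter. They were -0.46 for Cx3cr1 and -0.44 for Csf1r in females, and 0.85 for Gpr34 and 0.51 for Cx3cr1 in FC against MC. The calls thus came with other p values and not with larger differences. Between batches the count of 1 became 2 with DESeq2 and without the low-count filter (Siglech joined), and 0 with the mitochondrial share or the slope on exon length as a covariate, under the 1.5-fold threshold, and without FR1, FR2 and MR2, a set chosen after seeing the data. Leaving out each library gave 0 to 3 calls.

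Of the values that changed sign, Itgb8 alone had been called. Relative to core myeloid RNA, P2ry12 was 0.071 and Siglech 0.0085 with both sexes, P2ry12 0.015 and Selplg 0.014 in females, P2ry13 0.00070 and Csf1r 0.017 in males, and Tmem119 -0.29, Sall1 -0.18 and Selplg -0.13 in FC against MC. Without FR1, FR2 and MR2, P2ry12 was 0.042 with both sexes, Tmem119 -0.019 in females, and P2ry13 0.093, Cx3cr1 0.075 and Csf1r 0.080 in males. With the slope covariate, Tmem119 was -0.029 with both sexes and -0.12 in females and Itgb8, called before, was 0.075. Without a batch term Tmem119 was -0.0058 in females. Leaving out 1 library moved P2ry12 with both sexes between -0.15 and 0.0037 and Tmem119 between -0.087 and 0.12 in females and between -0.015 and 0.075 in FC against MC. In males it moved P2ry13 between -0.33 and 0.16, Cx3cr1 between -0.28 and 0.082 and Csf1r between -0.27 and 0.090. The cause was not tested.

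With the replicate number of the labels as a block, in place of batch, 0 members were called with both sexes, in females and in males, and Tmem119 was -0.095 in females. Of all genes 1298 were called with both sexes, against 2205 without the block, and Tgfbr2, Itgb8 and Cybb lost their calls there.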
